A study of Homo sapiens with 6 samples.

Results

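The SOCS family (suppressors of cytokine signalling) has 8 human genes, SOCS1 to SOCS7 and CISH, and all 8 were found by symbol among the 16953 genes of the authors' deposited comparison. The RNA came from H1048, a human small cell lung cancer line grown with fetal bovine serum and recorded as wild type. Cells had received ISP-I (isovalerylspiramycin I, a macrolide) at 10 µM in 3 samples or the solvent DMSO in 3 samples, for 48 h each, and the samples of a group are described as biological replicates. The authors' comparison is of libraries D to F with libraries A to C. No label used here names the treatment of either set, so a positive difference means only that a gene was higher in libraries D to F than in A to C, and no levels are given. Each gene comes with the log2 fold change, p and adjusted p that the authors deposited, without a standard error, and a gene was called at an adjusted p under 0.05.

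SOCS proteins carry an SH2 domain, which binds phosphorylated tyrosines, and a C-terminal SOCS box, which joins elongins B and C and cullin 5 into a ubiquitin ligase. CISH, SOCS1, SOCS2 and SOCS3 are known as classical feedback genes: cytokine receptors activate JAK kinases, these phosphorylate STAT factors, and the STATs induce the SOCS genes that then silence the receptor. SOCS1 and SOCS3 also hold a short region that blocks JAK activity directly. SOCS4 to SOCS7 have longer N-terminal regions and are better known for binding receptor tyrosine kinases and adaptors, and no STAT induction is as well established for them.

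The promoters of CISH and SOCS1 are shown because they hold matches to the motifs through which cytokines and interferons are known to act, and that of SOCS6 because SOCS6 had the smallest p of the family. Each is the RefSeq window from 250 bases before to 50 bases after the gene's start (GRCh38.p14), read 5′ to 3′ on the gene's strand. Capitals mark matches to TTCNNNGAA, the letters of a STAT dimer site, or to GAAA, any 2 bases and GAAA again, the letters of a site for interferon regulatory factors, searched on both strands. The windows are CISH on chromosome 3 (50611725 to 50612024, minus strand), SOCS1 on chromosome 16 (11256155 to 11256454, minus strand) and SOCS6 on chromosome 18 (70288795 to 70289094, plus strand).
CISH: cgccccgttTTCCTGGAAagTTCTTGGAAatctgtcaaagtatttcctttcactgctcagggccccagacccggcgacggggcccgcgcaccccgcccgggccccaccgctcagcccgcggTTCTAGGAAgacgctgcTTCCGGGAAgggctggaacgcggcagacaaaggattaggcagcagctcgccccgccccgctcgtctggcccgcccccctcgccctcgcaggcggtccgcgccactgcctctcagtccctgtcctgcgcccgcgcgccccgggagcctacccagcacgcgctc
SOCS1: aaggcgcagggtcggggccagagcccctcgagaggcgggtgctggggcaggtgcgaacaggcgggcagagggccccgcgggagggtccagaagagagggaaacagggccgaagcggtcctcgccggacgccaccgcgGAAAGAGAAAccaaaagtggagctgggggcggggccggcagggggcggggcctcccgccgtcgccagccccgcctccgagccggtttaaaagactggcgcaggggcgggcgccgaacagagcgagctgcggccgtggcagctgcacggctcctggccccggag
SOCS6: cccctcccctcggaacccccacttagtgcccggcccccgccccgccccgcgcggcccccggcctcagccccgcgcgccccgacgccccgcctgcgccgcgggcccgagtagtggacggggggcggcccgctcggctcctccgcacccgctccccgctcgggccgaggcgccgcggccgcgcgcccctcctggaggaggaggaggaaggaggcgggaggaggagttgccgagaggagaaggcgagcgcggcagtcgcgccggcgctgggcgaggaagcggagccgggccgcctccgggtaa

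CISH held 4 matches to the STAT letters, which began 241, 230, 129 and 112 bases before the start, and none to the interferon letters. The SOCS1 window held 1 match to the interferon letters, 113 bases before the start, and none to the STAT letters. SOCS6 held neither, and neither did SOCS4 nor the pair of windows listed for SOCS3. Those SOCS3 windows (chromosome 17, 78360876 to 78361175 and 78359618 to 78359917) both miss the gene's GENCODE start, 78360077 on the minus strand. The bases at that start and directly before it were not searched, so whether they hold either motif is not known here. No match overlapped another. Of 35116 promoter windows of this length, 7.66% held the STAT letters, 3.57% held the interferon letters, and 7 windows (0.0199%) held the STAT letters at least 4 times. A match describes the letters of the window and does not show that a factor was bound there. Windows were found for 5 of the 8 genes; SOCS2, SOCS5 and SOCS7 were not matched.

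**Figure D1:**
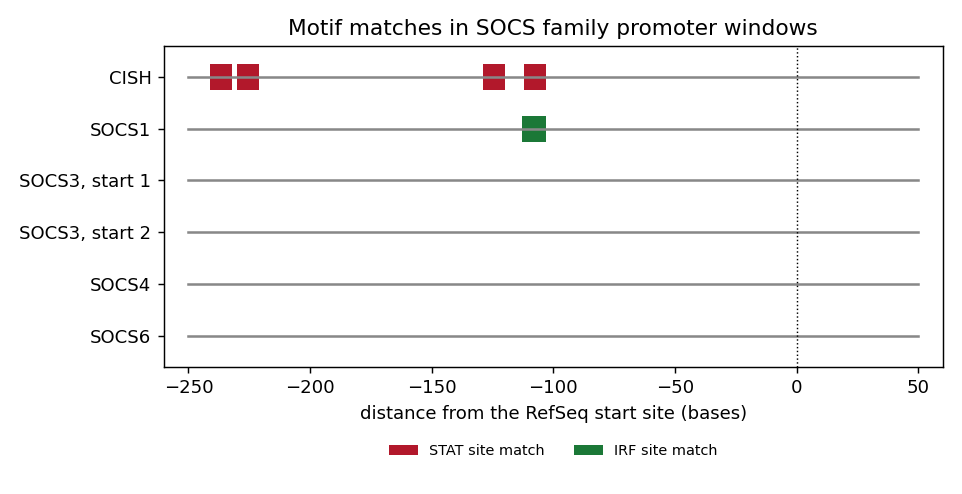
Motif matches in the promoter windows of the SOCS genes, 1 line per RefSeq start, against the distance from the start in bases (the dotted line is the start). CISH shows 4 STAT matches and SOCS1 1 interferon match, and the windows of SOCS3, SOCS4 and SOCS6 show none. Neither SOCS3 window covers the start of SOCS3 given by GENCODE.

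Most of the family was higher in libraries D to F, each by less than 2-fold. SOCS2, SOCS3, SOCS4, SOCS5 and SOCS6 were called higher by 1.37- to 1.77-fold, SOCS7 was called lower by 2.01-fold, and SOCS1 and CISH were not called, all in the authors' deposited table. Thus 5 of 8 members were higher and 1 lower. Of the 15976 genes with an adjusted p in that table, 57.6% were called, with 29.7% higher and 27.9% lower, so a call was the common case. The median log2 fold change was 0.55 over the 8 members and 0.05 over the 15976 genes. All 8 members had an adjusted p.

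**Figure D2:**
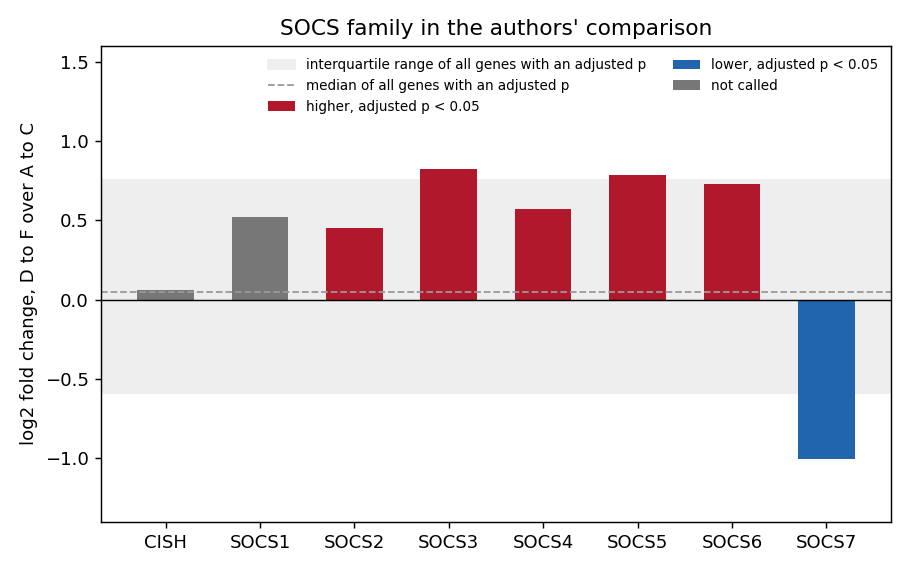
Log2 fold change of each SOCS gene in the authors' deposited table (vertical axis, D to F over A to C), without error bars since none were deposited. The band is the interquartile range of all genes with an adjusted p, from -0.59 to 0.75, and SOCS3, SOCS5 and SOCS7 lie beyond it.

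Among the cytokine-induced members, SOCS3, the feedback inhibitor of receptors that share gp130, had the largest increase of the family. Its log2 fold change in the authors' deposited table was 0.83 (1.77-fold; p = 0.000176, adjusted p = 0.000442). That size was ordinary among the genes called higher, of which 53.6% had a larger log2 fold change. SOCS2, which restrains growth hormone signalling, was at 0.45 (1.37-fold) with an adjusted p of 0.0344 in the same deposited table, the weakest call of the 6; it alone missed an adjusted p of 0.01, which 49.7% of the 15976 genes passed. Of the genes called higher, 82.7% had a larger log2 fold change than SOCS2.

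SOCS1, the inhibitor of interferon receptor signalling, had a log2 fold change of 0.52 in the authors' deposited table (1.44-fold; p = 0.286, adjusted p = 0.374). That estimate was larger than the one of SOCS2 but was not called. CISH, a classical target of STAT5, was at 0.06 (1.04-fold; p = 0.798, adjusted p = 0.845), which was the difference nearest to 0 in the family and close to the median of 0.06 over all 16953 genes in the authors' deposited table. A p that misses the threshold does not show that either gene was equal between the sets, and without standard errors no interval can be given. CISH is the gene whose promoter, printed above, held 4 STAT matches, and SOCS1 the one with the interferon match. SOCS2, SOCS5 and SOCS7 had no window to search, and neither SOCS3 window covered that gene's GENCODE start. Whether the motifs bear on the differences was not tested.

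The members with long N-terminal regions included the 3 smallest p-values of the family. SOCS6, an adaptor that binds the receptor KIT and promotes its degradation, was at 0.73 (1.66-fold; adjusted p = 6.55e-12 in the authors' deposited table). SOCS5, which is known to lower EGFR protein, was at 0.78 (1.72-fold; adjusted p = 2.68e-09). Its closest relative SOCS4 was at 0.57 (1.48-fold; adjusted p = 3.93e-07), in the same deposited table. SOCS3 ranked above SOCS6, SOCS5 and SOCS4 by fold but below them by p.

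SOCS7, which binds the adaptor NCK and components of insulin signalling, went the other way. Its log2 fold change in the authors' deposited table was -1.01, a 2.01-fold lower value in D to F (p = 0.000188, adjusted p = 0.000471). Of the genes with an adjusted p, 14.5% had a lower log2 fold change than SOCS7, and of the genes called lower 40.1% had a larger decrease. SOCS6 and SOCS7 are each other's closest relatives in the family; their log2 fold changes differed by 1.74, against 0.21 between SOCS5 and SOCS4, 0.30 between SOCS3 and SOCS1 and 0.39 between SOCS2 and CISH. These differences between genes were not tested.

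SOCS7 was the only member in the authors' smaller table, whose limits are an unadjusted p of 0.05 and a difference of 1 on the log2 scale (4021 of 16953 genes, 23.7%). It passed the fold limit narrowly, at -1.01, and the 5 members called higher stopped short of it, at 0.45 to 0.83.

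The family also differed in gene structure. In GENCODE 29 (GRCh38) the longest coding sequence of SOCS1, SOCS3, SOCS4, SOCS5 and SOCS6 lay in 1 exon, that of SOCS2 in 2, that of CISH in 3 and that of SOCS7 in 9. SOCS7 (chromosome 17, 38352228 to 38405593) encoded 581 residues, SOCS6 (chromosome 18, 70288901 to 70330200) 535 and SOCS5 (chromosome 2, 46698952 to 46780245) 536. SOCS4 (chromosome 14, 55027230 to 55049488) encoded 440 residues. CISH (chromosome 3, 50606490 to 50611831) encoded 275, SOCS3 (chromosome 17, 78356778 to 78360077) 225, SOCS1 (chromosome 16, 11254405 to 11256200) 211 and SOCS2 (chromosome 12, 93569814 to 93583487) 198. The only member called lower was therefore also the only one with more than 3 coding exons; with 1 such gene this is a description.

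Places where reads could have been shared between a member and another gene were looked up. Only exact runs were compared, so stretches that are similar but not identical were not examined. Among the 28 pairs of members the longest exact run shared by their coding transcripts was 20 bases, far below the read length of 150 that the labels name. SOCS5 has 5 processed pseudogenes in GENCODE 29, of which SOCS5P3 shared the longest run, 117 bases, and SOCS2 has 2, with at most 48 bases shared. SOCS1 lies wholly inside the span of RMI2 on the opposite strand, and RMI2 had a log2 fold change of -0.04 in the authors' deposited table (adjusted p = 0.884). CISH overlaps MAPKAPK3, on the opposite strand, over 312 bases at its start; MAPKAPK3 was called lower (-0.43, adjusted p = 0.000150 in the authors' deposited table). SOCS2 overlaps SOCS2-AS1 on the opposite strand over 1955 bases, and SOCS5 lies inside LINC01118 on its own strand. Neither SOCS2-AS1 nor LINC01118 was found by symbol in the authors' deposited table. With the use of strand in counting not given in the sources used here, reads of the opposite-strand pairs may not have been told apart. For SOCS5 and LINC01118, which share a strand, the use of strand could not separate their reads.

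Upstream of the family, the ligands called in libraries D to F were all higher and all belong to the cytokines that signal through gp130. Of 17 listed ligands in the authors' deposited table, 15 had an adjusted p, of which 5 were called higher, none lower and 10 not called (median log2 fold change 1.15). The share called higher, 33.3%, was near the 29.7% of all genes with an adjusted p, of which 57.6% were called in either direction. LIF, a self-renewal and inflammatory cytokine, was at 4.19 (18.3-fold; adjusted p = 3.04e-85), IL11, a relative of IL6, at 3.27 (9.68-fold; adjusted p = 3.89e-42) and CLCF1, a ligand of the CNTF receptor, at 1.15 (2.23-fold; adjusted p = 8.79e-09). IL6, named after its value was seen, was at 4.82 in the authors' deposited table with an adjusted p of only 0.00173. The remaining call was CNTF (0.89, adjusted p = 0.0347).

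Receptors were divided and mostly lower. Of 21 receptors in the authors' deposited table, 4 were called higher, 11 lower and 6 not called, with a median of -0.59. The share of receptors called was 71.4%, against 57.6% of all genes with an adjusted p (29.7% higher, 27.9% lower). The chain that binds IL6, IL6R, was at 5.33 (40.1-fold; adjusted p = 6.96e-80), its signalling partner IL6ST, which encodes gp130, at 0.69 (1.61-fold; adjusted p = 1.12e-11) and IL7R at 4.08 (adjusted p = 0.0154). The lower calls included IL13RA1, a chain of the IL13 receptor (-1.85, adjusted p = 4.24e-89 in the authors' deposited table) and the prolactin receptor PRLR (-1.30, adjusted p = 1.73e-29). The interferon receptor chains IFNAR1 (-0.62), IFNAR2 (-0.87) and IFNGR2 (-1.01) were also called lower in that deposited table and IFNGR1 (0.36) higher. LIFR (-0.13, adjusted p = 0.432) and OSMR (-0.26, adjusted p = 0.120), the chains through which LIF and oncostatin M signal, were not called. The IL11 receptor chain IL11RA was called lower (-1.04, adjusted p = 1.51e-05), and the CNTF receptor chain CNTFR was not called (0.08, adjusted p = 0.822). The interferon and gp130 partner chains named after PRLR were picked after their values were seen.

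The kinases and factors between receptor and nucleus were also mostly lower. In the authors' deposited table, 2 of 11 JAK and STAT genes were called higher and 6 lower, with a median of -0.30. Calls thus covered 72.7% of them, against 57.6% of all genes with an adjusted p (29.7% higher, 27.9% lower). STAT2, a factor of interferon signalling, was at -1.19 (2.28-fold lower; adjusted p = 3.57e-17), the kinase TYK2 at -0.80 (1.74-fold lower; adjusted p = 2.02e-12) and JAK1 at -0.44 (1.35-fold lower; adjusted p = 3.22e-05). The kinase JAK2 (0.66, adjusted p = 3.04e-05) was called higher in the deposited table. STAT3, the factor best known for inducing SOCS3, was at -0.30 (adjusted p = 0.00443) and STAT5B at -0.32 (adjusted p = 0.00153), both lower, while STAT5A (0.72, adjusted p = 0.615) was not called; these 3 values of the authors' deposited table were named after they were seen. The tables hold RNA differences and say nothing of the phosphorylation of these proteins.

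Genes known as STAT targets were mostly higher. Of 17 listed targets in the authors' deposited table, 16 had an adjusted p, of which 12 were called higher, 2 lower and 2 not called (median 1.02). Those called made up 87.5% of the 16, against 57.6% of all genes with an adjusted p (29.7% higher, 27.9% lower). PIM3, a serine kinase, was at 2.62 (6.16-fold; adjusted p = 1.12e-199), the AP-1 subunit JUNB at 2.81 (6.99-fold; adjusted p = 2.48e-177) and the survival factor MCL1 at 1.73 (3.33-fold; adjusted p = 9.80e-106). The lower calls were the survival factor BCL2L1 (-0.49, adjusted p = 9.21e-06) and PIM2 (-0.37, adjusted p = 0.0461) in the authors' deposited table. These genes answer to other signals as well, and the increases of SOCS3 and SOCS2 given above were smaller than the list's median. Whether those increases are linked to the differences of the list was not tested.

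Other listed regulators of the pathway were mostly lower. Of 15 listed genes 3 were called higher, 8 lower and 4 not called in the authors' deposited table, with a median of -0.25. That is 73.3% called, against 57.6% of all genes with an adjusted p (29.7% higher, 27.9% lower). PIAS3, which binds STAT3, was at -1.59 (3.02-fold lower; adjusted p = 3.76e-29), and the phosphatase PTPN6 (SHP-1) at -1.71 (3.28-fold lower; adjusted p = 5.72e-27). SH2B1, at -0.80 (adjusted p = 8.85e-12), is on this list although it is known to promote JAK2 activity. LNX1, at 1.95 (adjusted p = 3.11e-76 in the authors' deposited table), is a ubiquitin ligase of NUMB and is not an established JAK-STAT regulator. The phosphatases PTPN2 (0.60, adjusted p = 1.01e-05) and PTPN1 (0.38, adjusted p = 0.000609), which dephosphorylate JAKs and STATs, were the other increases.

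Partners that turn the SOCS box into a ubiquitin ligase were higher or not called. Of 7 genes in the authors' deposited table, 3 were called higher and none lower, with a median of 0.31. The share called was 42.9%, against 57.6% of all genes with an adjusted p, of which 29.7% were called higher. The RING protein RBX1 was at 0.82 (1.77-fold; adjusted p = 2.05e-08), elongin C, ELOC, at 0.45 (1.37-fold; adjusted p = 0.000874) and RNF7, the RING protein that pairs with cullin 5, at 0.46 (1.38-fold; adjusted p = 0.00577). CUL5 itself was at 0.10 (adjusted p = 0.372) and elongin B, ELOB, at -0.02 (adjusted p = 0.894) in the deposited table.

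**Figure D3:**
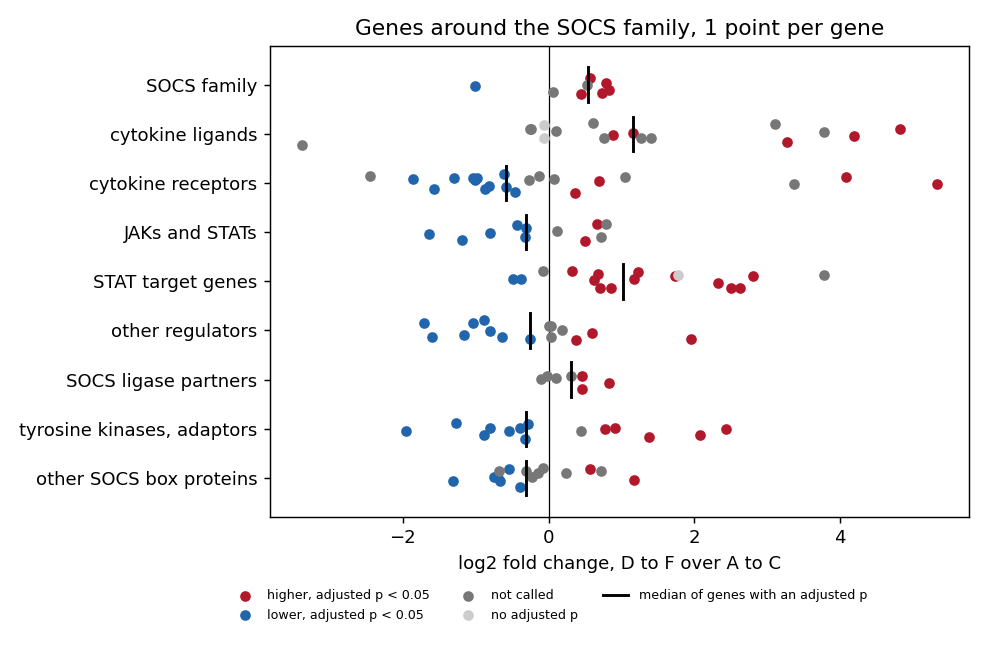
Log2 fold change (horizontal axis, D to F over A to C, authors' deposited table) of each gene in the lists around the SOCS family, 1 point per gene, coloured by call. The short vertical lines are medians of genes with an adjusted p, 0.55 for the SOCS family, 1.15 for cytokine ligands and -0.59 for cytokine receptors.

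The receptors and adaptors that SOCS proteins bind changed in both directions. Of 14 such genes in the authors' deposited table, 5 were called higher, 8 lower and 1 was not called, with a median of -0.31. Their share called was 92.9%, against 57.6% of all genes with an adjusted p (29.7% higher, 27.9% lower). KIT, to which SOCS6 binds, was at -1.96 (3.90-fold lower; adjusted p = 3.20e-87) and EGFR, a target of SOCS5, at -1.27 (2.41-fold lower; adjusted p = 4.88e-28). The insulin receptor substrates IRS2 (2.44, 5.41-fold; adjusted p = 1.64e-90) and IRS1 (2.08, 4.22-fold; adjusted p = 1.11e-38) were higher in the deposited table. The adaptors that SOCS7 is named with were split, NCK1 at 0.78 (adjusted p = 1.76e-06) and NCK2 at -0.89 (adjusted p = 2.53e-17). Whether any of these differences bears on a SOCS gene was not tested.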

How the data were processed

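RNA was sequenced from 6 samples of H1048 cells. Per the submitters' processing notes, Trimmomatic, STAR, HTSeq, DESeq2 and hg38 were used; versions, settings, annotation and strand use: not given in the sources used here. Per the file headers, the authors deposited a log2 fold change and a p-value with its adjusted p-value per gene, in 2 tables; whether fold changes were shrunken is not given.

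A positive log2 fold change was read as higher in D to F because the comparison is named in that order. The 36 columns with a value per library, 18 to a table, carry letters that no label ties to a sample or treatment. They were not used in any calculation, though the members' values per library were displayed once while the file was inspected. Depth, levels, spread between replicates and the planned count test are therefore not given, and p-values are the authors'. The 977 genes with an adjusted p of exactly 1 were treated as having none; the remaining 15976 adjusted values equalled a Benjamini-Hochberg adjustment over those genes, recomputed with a function tested on simulated data.

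The members and the 8 gene lists were chosen with earlier results of these data known, and counts of a list are descriptions with no test of the list. Beside the 57.6% of all genes called, the shares were 71.4% for cytokine receptors and 72.7% for JAKs and STATs. They were 87.5% for STAT targets, 73.3% for other regulators and 92.9% for the receptors and adaptors that SOCS proteins bind. Named genes were all members and, of each list, up to 3 called in each direction with the smallest p; genes named beyond this are marked or were picked after their values were seen, and a few that qualified are not reported here. Gene positions come from GENCODE 29 (GRCh38) and promoters from RefSeq (GRCh38.p14). Software: matplotlib 3.10.9, scipy 1.17.1, numpy 2.4.6, pandas 2.3.3 and Python 3.11.15.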

Additional observations from a re-analysis of the deposited data

How the results depend on the processing

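With p-values adjusted over all 16953 genes the 5 higher calls and the 1 lower call among SOCS members were unchanged, and SOCS2 had an adjusted p of 0.0365. At an adjusted p under 0.01, which 49.7% of genes passed, SOCS2 was no longer called and 4 members were higher and 1 lower. Under the limit of the authors' smaller table, 0 members were higher and 1, SOCS7, was lower, since that limit asks for a 2-fold difference by construction. Centring log2 fold changes on the median of all genes (0.06) or of genes not called (0.02) moved no member across 0; CISH came to 0.00 under the first, and SOCS7 ranged from -1.07 to -1.01. Of 16 counts over the surrounding lists, 2 moved by over 1.5 times at an adjusted p under 0.01 and 13 under the fold limit. The receptors called higher were 2 of 21 at an adjusted p under 0.01, since IL7R and IFNGR1 dropped out.

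No paired analysis was possible because no label ties the columns per library to samples or replicate numbers. The columns per library were not used here, so the other count model, the filter on low counts and the leaving out of single replicates were not run, and low counts behind a fold change were not examined.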

Other observations

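Other proteins with a SOCS box also recruit elongins B and C but use other domains to bind their targets. The share of them called, 53.3%, was near the 57.6% of all genes with an adjusted p. Of 15 listed genes in the authors' deposited table, 2 were called higher, 6 lower and 7 not called, with a median log2 fold change of -0.30. Over all genes with an adjusted p, 29.7% were called higher and 27.9% lower. SPSB4 was at -1.32 (adjusted p = 2.72e-29), WSB2 at -0.67 (adjusted p = 8.19e-12) and ASB1 at -0.69 (adjusted p = 1.34e-11). ASB6 was at 1.17 (adjusted p = 4.20e-25) and SPSB1, which targets the inducible nitric oxide synthase, at 0.56 (adjusted p = 0.00385), the increases of that list in the authors' deposited table.

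Markers that define the line and other cell types were looked up in the same deposited table, as differences only. The tuft cell-like markers POU2F3 (-1.71, adjusted p = 3.42e-89), AVIL (-2.31) and SOX9 (-1.25) were called lower, and ASCL2 and TRPM5 were not called. Of 5 leukocyte markers LYZ (4.90, adjusted p = 9.84e-07) and CD79A (2.02, adjusted p = 0.0463) were called higher, while PTPRC (0.19), CD14 (0.83) and CSF1R (2.02) were not called in the authors' deposited table. Of 4 fibroblast markers POSTN (-3.97), PDGFRA (-1.91) and COL1A1 (-0.57) were lower, and DCN (-3.01) was not called. The only endothelial marker with an adjusted p, CDH5, was not called (0.84). The neuroendocrine markers SYP (2.51) and INSM1 (1.81) were called higher in the deposited table. Their levels were not used here, and their part in the differences of the SOCS genes was not tested.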
